A study of Mus musculus with 2 samples.

Results

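Semaphorins, plexins and neuropilins form 1 family of guidance cues and their receptors, and 31 of the 32285 genes measured carry a symbol of this family (20 semaphorins of classes 3 to 7, 9 plexins and 2 neuropilins). Members were taken by symbol. All 31 were listed in both libraries. Class 3 semaphorins are secreted, and those of the other classes are held at the cell surface. Plexins are their signalling receptors and act on small GTPases and the cytoskeleton, while neuropilins have no catalytic domain and serve as co-receptors for class 3 semaphorins and for VEGF. The family was described first in axon guidance and is known in the lung for roles in branching, alveolar growth and vessel patterning.

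The data were single-nucleus RNA and ATAC libraries, in which gene counts and chromatin accessibility counts come from the same nucleus, made from lungs of wild type mouse fetuses on gestation day 18. Mothers of both groups were injected with alum before mating, with OVA (ovalbumin, the model allergen) in the OVA group and without it in the PBS group, and were then given OVA or PBS into the nose during pregnancy. The PBS library pooled 9 fetuses and the OVA library 8, the design names a single mother for each, and fathers were untreated. Nuclei came from sorted ILC2s (group 2 innate lymphoid cells, CD45+ Lin- ST2+), from CD45+ cells and from EpCAM+ cells, the last being epithelial. There was 1 library for each group, so every difference between them compares 2 libraries, mother and treatment cannot be told apart, and no test across replicates was possible. Intervals are 95% and cover counting error only.

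The PBS library held 8019 barcodes and the OVA library 5960, of which 4279 and 4996 nuclei were kept. Kept nuclei had a median of 1115 (PBS) and 1821 (OVA) UMIs, or unique transcript molecules, and mitochondrial UMIs took 45.2% and 29.2% of all gene UMIs before filtering. The libraries shared 54 barcodes, of which 30 were kept in both. Nuclei were clustered with the family genes left out and clusters were named from marker genes outside the family, with "-like" added to each name. This gave 9 types with at least 50 nuclei in each library, from 59 mast cell or basophil-like nuclei to 1140 macrophage-like nuclei in the PBS library, and "named types" below means these 9. The methods give the fetal sorts as ILC2, CD45+ and EpCAM+ and name a fibroblast sort for adult lungs only, while another passage of the study names fibroblasts for both ages. In these libraries fibroblast-like nuclei made up 21.2% of kept PBS nuclei and 23.5% of kept OVA nuclei, myofibroblast or smooth muscle-like nuclei 10.7% and 7.63%, and pericyte-like nuclei 2.64% and 2.72%. Levels are given as CPM, a gene's UMIs per 1000000 UMIs of the type in that library. The level that 3 UMIs stand for ranged from 0.855 CPM in macrophage-like nuclei of the OVA library to 44.2 CPM in mast cell or basophil-like nuclei of the PBS library.

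Most members had their highest CPM in the same type in both libraries. Of the 27 members with at least 30 UMIs over the named types, 23 (85.2%) were highest in the same type in the PBS and the OVA library, against 48.3% of the 12917 genes with at least 30 UMIs. The highest type exceeded the next at least 2-fold in both libraries for 11 of 27 (40.7%), against 11.6% of those genes. Both shares are descriptions of 2 libraries, and the genes were not matched to the members for UMI count or gene length. Nuclei of at least 500 nuclear-gene UMIs were also thinned to 500, with the others left out. Then 20 members could be ranked, of which 17 shared the highest type (85%) and 6 were 2-fold above the next (30%). With at most 20% mitochondrial UMIs 21 could be ranked, of which 12 shared it (57.1%). That limit left only 2 mast cell or basophil-like, 4 monocyte-like, 11 ILC2-like, 12 pericyte-like and 14 macrophage-like nuclei in the PBS library. The ranking under it therefore included types of few nuclei. No all-gene share was taken with thinned nuclei or under that limit.

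**Figure D1:**
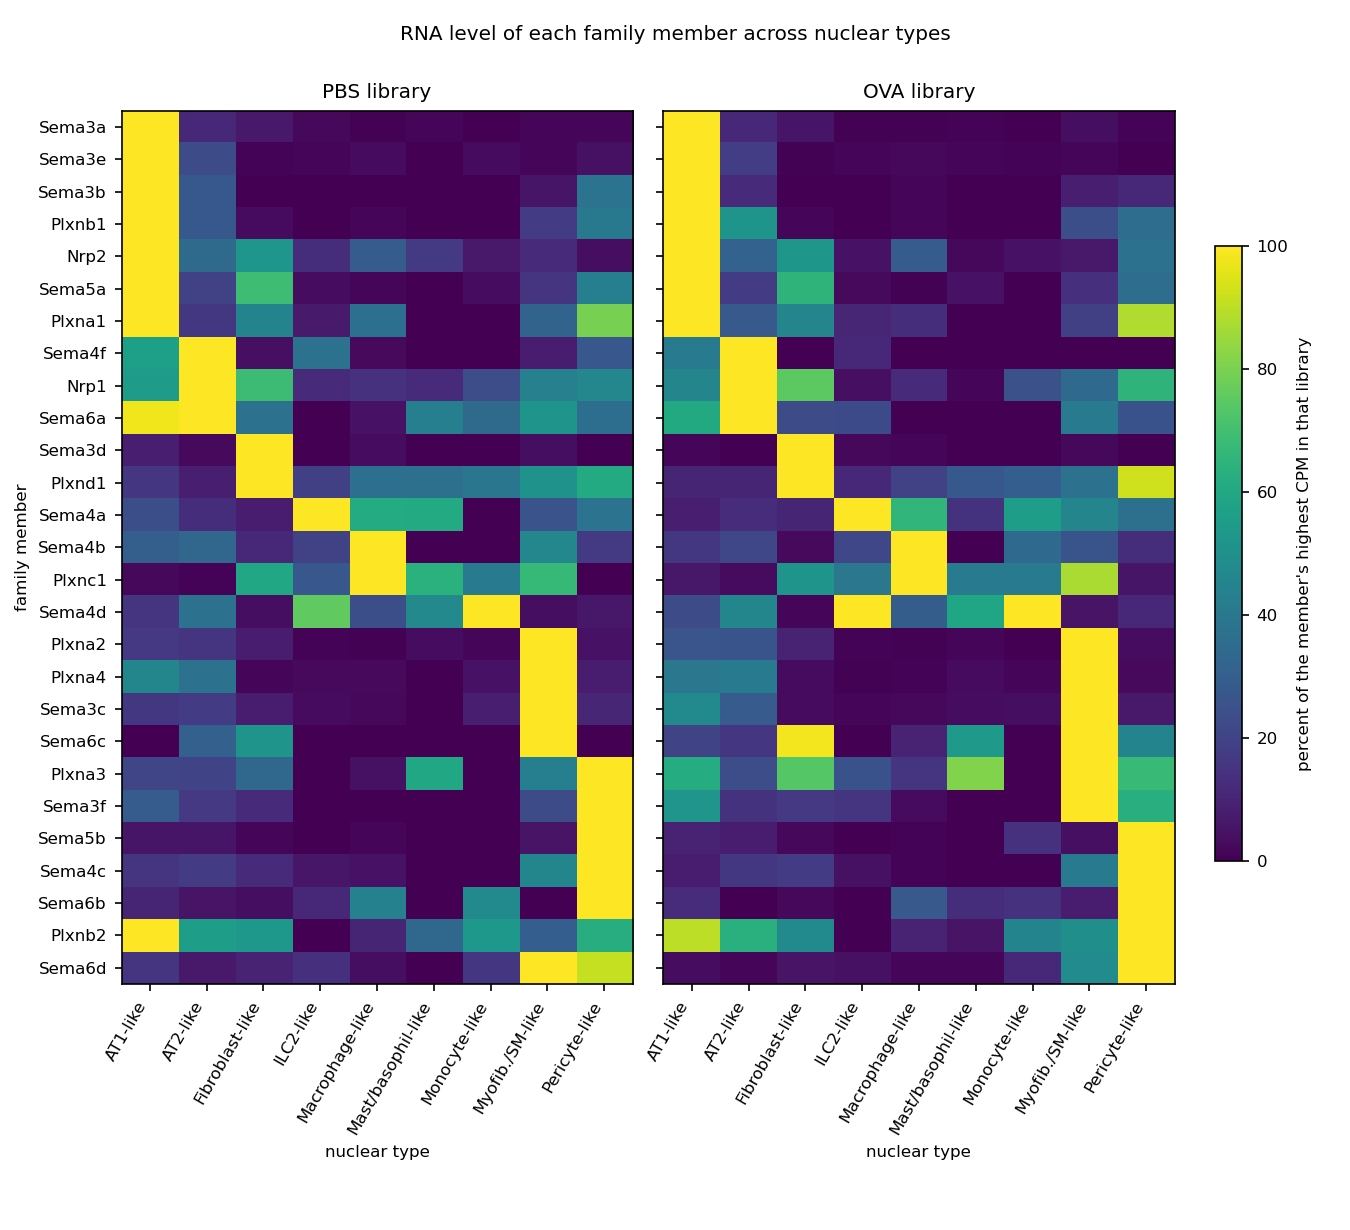
Colour gives each member's CPM in a nuclear type as a percentage of its highest CPM in that library, for the 27 members with at least 30 UMIs, in the PBS (left) and OVA (right) library. The brightest square falls in the same column in both panels for 23 members, and AT1-like nuclei hold 7 of them.

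AT1-like nuclei, named from genes of the flat cells of gas exchange, led 7 members (25.9% of 27), while they led 9.09% of all genes with at least 30 UMIs. Only genes with the same highest type in both libraries count as led, 23 of the 27 members and 6244 of the 12917 genes. Among those, AT1-like nuclei led 7 of 23 members and 1174 of 6244 genes. The 7 members were the ligands Sema3a, Sema3b, Sema3e and Sema5a and the receptors Nrp2, Plxna1 and Plxnb1. Myofibroblast or smooth muscle-like nuclei led Plxna2, Plxna4, Sema3c and Sema6c. Pericyte-like nuclei led Sema4c, Sema5b and Sema6b. AT2-like nuclei, named from genes of the surfactant-making cells, led Nrp1, Sema4f and Sema6a, and fibroblast-like nuclei led Plxnd1 and Sema3d. The immune types led class 4 ligands and 1 receptor, with Sema4a highest in ILC2-like nuclei, Sema4d in monocyte-like nuclei, and Sema4b and Plxnc1 in macrophage-like nuclei. Mast cell or basophil-like nuclei led none. Being led means the highest CPM only, and counting error did not resolve every lead. The interval of the log2 ratio to the next type included 0 in both libraries for Plxna1, Plxnd1, Sema4d and Sema6c. It included 0 in the OVA library for Plxnc1 and Sema5b, and in the PBS library for Sema3b, Sema4a, Sema4f, Sema6a and Sema6b.

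Promoters are shown for 4 of the 6 members with the largest lead over the next type among members of at least 100 UMIs, those with a RefSeq entry overlapping a peak of accessible chromatin in both libraries. They are led by fibroblast-like (Sema3d), AT1-like (Sema3e), myofibroblast or smooth muscle-like (Plxna2) and pericyte-like (Sema4c) nuclei. Each line gives the 250 bases before the RefSeq start of the GRCm38.p6 build, 5′ to 3′ on the gene's strand, with matches of the motif CCAAT, the motif GGGCGG or the motif TATAAA on either strand in capitals. Sema3d lies at chr5:12382916-12383165 (plus strand), Sema3e at chr5:14025026-14025275 (plus), Plxna2 at chr1:194619579-194619828 (plus) and Sema4c at chr1:36558382-36558631 (minus).
Sema3d: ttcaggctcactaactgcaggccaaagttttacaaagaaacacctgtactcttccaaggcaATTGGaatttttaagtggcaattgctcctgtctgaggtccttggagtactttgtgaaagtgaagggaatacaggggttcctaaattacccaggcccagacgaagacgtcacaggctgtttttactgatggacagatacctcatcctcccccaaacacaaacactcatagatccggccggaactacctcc
Sema3e: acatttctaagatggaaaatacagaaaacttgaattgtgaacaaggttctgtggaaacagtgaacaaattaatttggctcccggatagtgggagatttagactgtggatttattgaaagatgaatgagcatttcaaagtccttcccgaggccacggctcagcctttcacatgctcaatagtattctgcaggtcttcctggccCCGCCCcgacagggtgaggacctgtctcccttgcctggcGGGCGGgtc
Plxna2: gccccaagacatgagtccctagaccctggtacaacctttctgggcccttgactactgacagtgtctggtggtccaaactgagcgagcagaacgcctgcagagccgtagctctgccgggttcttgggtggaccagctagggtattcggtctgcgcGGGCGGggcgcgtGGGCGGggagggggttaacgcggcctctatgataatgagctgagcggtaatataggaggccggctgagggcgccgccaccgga
Sema4c: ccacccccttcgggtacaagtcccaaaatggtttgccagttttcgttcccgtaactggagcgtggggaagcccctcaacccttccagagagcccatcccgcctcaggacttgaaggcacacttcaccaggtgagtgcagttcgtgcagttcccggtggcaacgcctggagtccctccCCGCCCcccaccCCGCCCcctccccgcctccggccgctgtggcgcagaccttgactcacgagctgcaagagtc
The peaks over these starts held 236 PBS and 270 OVA counts for Sema3d, 173 and 174 for Sema3e, 647 and 754 for Plxna2, and 784 and 810 for Sema4c. Bases G and C made up 46.8% of the Sema3d window and 48% of the Sema3e window, against 62.8% for Plxna2, 64.4% for Sema4c and a median of 52.4% over 32851 RefSeq windows. The CG dinucleotide occurred 4, 7, 18 and 15 times, against a median of 6. CCAAT was in the Sema3d window once and in 33.8% of all windows. GGGCGG was in the Sema3e, Plxna2 and Sema4c windows, at 2 places in each, and in 32.7% of all windows. TATAAA was in none of the 4 and in 12.4% of all windows. A match of letters is a description and no binding was measured.

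Among the secreted ligands, Sema3a, which repels growing axons and vessels through Nrp1 and class A plexins, was by far highest in AT1-like nuclei. Sema3a CPM in the PBS library was 990.3 in AT1-like, 109.6 in AT2-like, 67.3 in fibroblast-like, 12.3 in myofibroblast or smooth muscle-like, 12.2 in pericyte-like, 22.7 in ILC2-like, 5.93 in macrophage-like, 0 in monocyte-like and 14.7 in mast cell or basophil-like nuclei. Sema3a CPM in the OVA library was 1151 in AT1-like, 132 in AT2-like, 64.9 in fibroblast-like, 44.1 in myofibroblast or smooth muscle-like, 11.6 in pericyte-like, 7.13 in ILC2-like, 4.85 in macrophage-like, 0 in monocyte-like and 9.21 in mast cell or basophil-like nuclei. The AT1-like level exceeded the next, in AT2-like nuclei, 9.03-fold (PBS) and 8.75-fold (OVA). Nuclei of at least 500 nuclear-gene UMIs, 211 of 310 AT1-like nuclei (PBS) and 307 of 361 (OVA), were thinned to 500. Of these, 43.1% in the PBS library (36.3% to 50.1%, exact binomial) and 46.6% in the OVA library (40.9% to 52.3%) held a Sema3a UMI. Over all AT1-like nuclei, unthinned, the shares were 57.1% and 72.9%. The same thinned share was 0.359% and 0.654% in macrophage-like nuclei, whose median depth was 1439 and 2217 UMIs against 1132 and 2038 in AT1-like nuclei. AT1-like nuclei also carried surfactant transcripts. The 9 AT2 markers summed to 5714 and 5904 CPM there, none at 0, against 25953 and 28973 CPM in AT2-like nuclei. The 7 AT1 markers summed to 713 and 618 CPM in AT2-like nuclei, none at 0, against 5705 and 5782 CPM in AT1-like nuclei. Their part in the Sema3a and Sema3e levels of AT2-like nuclei was not tested.

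Sema3e, which binds Plxnd1 without a neuropilin, followed the same order of AT1-like over AT2-like nuclei. Sema3e CPM in the PBS library was 393 in AT1-like, 90.7 in AT2-like, 3.64 in fibroblast-like, 7.03 in myofibroblast or smooth muscle-like, 18.4 in pericyte-like, 5.68 in ILC2-like, 11.3 in macrophage-like, 11.8 in monocyte-like and 0 in mast cell or basophil-like nuclei. Sema3e CPM in the OVA library was 525 in AT1-like, 95.3 in AT2-like, 2.29 in fibroblast-like, 8.54 in myofibroblast or smooth muscle-like, 0 in pericyte-like, 7.13 in ILC2-like, 11.98 in macrophage-like, 5.00 in monocyte-like and 9.21 in mast cell or basophil-like nuclei. All other named types stayed at or below 18.4 CPM in both libraries. Sema3b, a ligand of Nrp2, was also highest in AT1-like nuclei, at 32.03 CPM (25 UMIs) and 34.3 CPM (39 UMIs).

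Sema3d, a class 3 ligand that uses Nrp1, was nearly restricted to fibroblast-like nuclei among the named types. Sema3d CPM in the PBS library was 3.84 in AT1-like, 1.26 in AT2-like, 46.4 in fibroblast-like, 1.76 in myofibroblast or smooth muscle-like, 0 in pericyte-like, 0 in ILC2-like, 1.62 in macrophage-like, 0 in monocyte-like and 0 in mast cell or basophil-like nuclei. Sema3d CPM in the OVA library was 0.879 in AT1-like, 0 in AT2-like, 64.5 in fibroblast-like, 1.42 in myofibroblast or smooth muscle-like, 0 in pericyte-like, 1.43 in ILC2-like, 0.855 in macrophage-like, 0 in monocyte-like and 0 in mast cell or basophil-like nuclei. Outside fibroblast-like nuclei no type held more than 3 UMIs in a library, so the log2 ratio to the next type was 3.59 (from 1.96) in the PBS library and 5.50 (from 3.00) in the OVA library, the bracketed value being the lower bound of its interval. A Ctnna3-led stromal cluster that the marker rule left unnamed was higher still, at 143 CPM in the PBS library and 134 CPM in the OVA library.

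Sema3c, which guides neural crest cells of the heart outflow through neuropilins and Plxnd1, was highest in myofibroblast-like nuclei, as the myofibroblast or smooth muscle-like type is called from here on. Sema3c CPM in the PBS library was 46.1 in AT1-like, 49.1 in AT2-like, 22.7 in fibroblast-like, 281 in myofibroblast or smooth muscle-like, 30.6 in pericyte-like, 8.52 in ILC2-like, 6.47 in macrophage-like, 23.5 in monocyte-like and 0 in mast cell or basophil-like nuclei. Sema3c CPM in the OVA library was 134 in AT1-like, 80.6 in AT2-like, 8.78 in fibroblast-like, 282 in myofibroblast or smooth muscle-like, 19.3 in pericyte-like, 4.28 in ILC2-like, 5.70 in macrophage-like, 9.998 in monocyte-like and 9.21 in mast cell or basophil-like nuclei. The lead over the next type was 5.72-fold (PBS) and 2.10-fold (OVA), and AT1-like nuclei were the next type in the OVA library. Sema3f, a further Nrp2 ligand, had 65 UMIs in all and differed in its highest type, pericyte-like at 30.6 CPM in the PBS library and myofibroblast-like at 18.5 CPM in the OVA library. Sema3g had 1 UMI in the named types.

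Surface-bound class 4 ligands were split among stromal, immune and epithelial types. Sema4c CPM in the PBS library was 14.1 in AT1-like, 16.4 in AT2-like, 10.9 in fibroblast-like, 42.2 in myofibroblast or smooth muscle-like, 91.9 in pericyte-like, 5.68 in ILC2-like, 4.32 in macrophage-like, 0 in monocyte-like and 0 in mast cell or basophil-like nuclei. Sema4c CPM in the OVA library was 10.5 in AT1-like, 21.5 in AT2-like, 23.3 in fibroblast-like, 54.1 in myofibroblast or smooth muscle-like, 131 in pericyte-like, 5.70 in ILC2-like, 1.14 in macrophage-like, 0 in monocyte-like and 0 in mast cell or basophil-like nuclei. Sema4c, a ligand of Plxnb2, was thus highest in pericyte-like nuclei and second in myofibroblast-like nuclei in both libraries. Its immune levels were at or below 5.70 CPM.

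Sema4a, known for its action on T cells, was highest in ILC2-like nuclei, with macrophage-like nuclei next. Sema4a CPM in the PBS library was 11.5 in AT1-like, 6.30 in AT2-like, 3.64 in fibroblast-like, 12.3 in myofibroblast or smooth muscle-like, 18.4 in pericyte-like, 48.3 in ILC2-like, 29.7 in macrophage-like, 0 in monocyte-like and 29.5 in mast cell or basophil-like nuclei. Sema4a CPM in the OVA library was 5.27 in AT1-like, 8.06 in AT2-like, 6.49 in fibroblast-like, 28.5 in myofibroblast or smooth muscle-like, 23.2 in pericyte-like, 62.7 in ILC2-like, 41.3 in macrophage-like, 34.99 in monocyte-like and 9.21 in mast cell or basophil-like nuclei. The ratio of ILC2-like to macrophage-like level was 1.63 (PBS) and 1.52 (OVA). On the log2 scale it was 0.70 (-0.17 to 1.51) in the PBS library, which includes 0, and 0.60 (0.08 to 1.10) in the OVA library.

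Sema4b, another partner of Plxnb2, was highest in macrophage-like nuclei. Sema4b CPM in the PBS library was 21.8 in AT1-like, 23.9 in AT2-like, 8.19 in fibroblast-like, 33.4 in myofibroblast or smooth muscle-like, 12.2 in pericyte-like, 14.2 in ILC2-like, 72.3 in macrophage-like, 0 in monocyte-like and 0 in mast cell or basophil-like nuclei. Sema4b CPM in the OVA library was 14.1 in AT1-like, 18.8 in AT2-like, 2.29 in fibroblast-like, 22.8 in myofibroblast or smooth muscle-like, 11.6 in pericyte-like, 18.5 in ILC2-like, 87.5 in macrophage-like, 29.99 in monocyte-like and 0 in mast cell or basophil-like nuclei. The next type differed between the libraries, and the lead was 2.16-fold (PBS) and 2.92-fold (OVA).

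Sema4d, the CD100 antigen of lymphocytes and a ligand of Plxnb1 and Plxnb2, was shared by monocyte-like and ILC2-like nuclei. It stood at 94.1 CPM (8 UMIs) in monocyte-like and 71.0 CPM (25 UMIs) in ILC2-like nuclei of the PBS library. In the OVA library both were level, at 140.0 CPM (28 UMIs) and 139.7 CPM (98 UMIs). The order of these neighbours is therefore not resolved by their counts. Sema4f was highest in AT2-like nuclei at 22.7 and 25.5 CPM. Sema4g had 27 UMIs in all and was not ranked.

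Sema5a, which carries thrombospondin repeats, was the one abundant class 5 ligand, and it was high in both AT1-like and fibroblast-like nuclei. Sema5a CPM in the PBS library was 341 in AT1-like, 65.5 in AT2-like, 236 in fibroblast-like, 50.97 in myofibroblast or smooth muscle-like, 147 in pericyte-like, 11.4 in ILC2-like, 4.32 in macrophage-like, 11.8 in monocyte-like and 0 in mast cell or basophil-like nuclei. Sema5a CPM in the OVA library was 486 in AT1-like, 85.9 in AT2-like, 316 in fibroblast-like, 66.9 in myofibroblast or smooth muscle-like, 174 in pericyte-like, 11.4 in ILC2-like, 3.71 in macrophage-like, 0 in monocyte-like and 23.03 in mast cell or basophil-like nuclei. AT1-like nuclei exceeded fibroblast-like nuclei 1.45-fold and 1.54-fold. The unnamed Ctnna3-led cluster stood beside them, at 427 CPM in the PBS library and 553 CPM in the OVA library. Sema5b, its closest relative, was highest in pericyte-like nuclei among the named types, at 67.4 CPM (11 UMIs) and 34.8 CPM (9 UMIs), and in the same unnamed cluster it stood at 70.3 and 76.3 CPM.

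Class 6 ligands signal through class A plexins, and 3 of the 4 (Sema6b, Sema6c and Sema6d) were highest in stromal types among the named ones. Sema6d, a Plxna1 ligand, was highest in myofibroblast-like nuclei of the PBS library at 148 CPM, where pericyte-like nuclei held 135 CPM. In the OVA library pericyte-like nuclei led at 309 CPM, over 149 CPM in myofibroblast-like nuclei. Sema6a, a ligand of Plxna2 and Plxna4, was highest in AT2-like nuclei among the named types, at 34.0 CPM in the PBS library and 76.5 CPM in the OVA library, where AT1-like nuclei held 33.3 and 46.6 CPM. Sema6b was highest in pericyte-like nuclei at 24.5 CPM (4 UMIs) and 34.8 CPM (9 UMIs), and Sema6c in myofibroblast-like nuclei at 12.3 CPM and 8.54 CPM. Sema7a, the lipid-anchored member that binds Plxnc1 and integrins, had 23 UMIs in the named types and was not ranked.

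**Figure D2:**
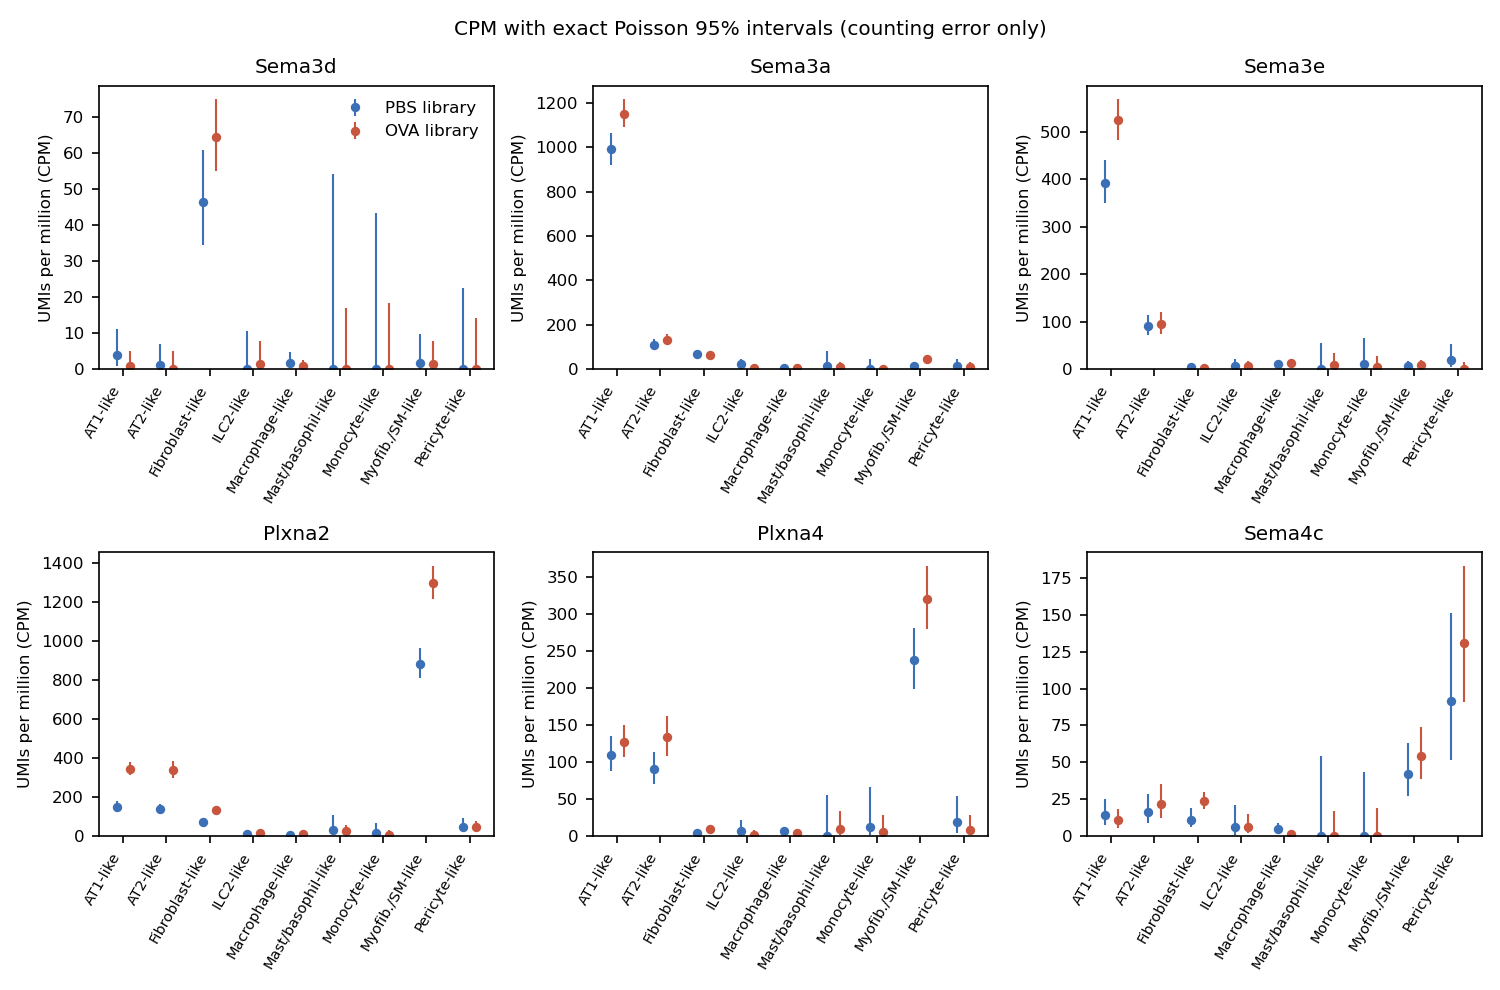
Points give CPM of the 6 members of at least 100 UMIs with the largest ratio of highest to next type, in each nuclear type of the PBS (blue) and OVA (red) library, and bars give exact Poisson 95% intervals (counting error only). Sema3a and Sema3e peak in AT1-like nuclei, Plxna2 and Plxna4 in myofibroblast-like nuclei, Sema3d in fibroblast-like nuclei and Sema4c in pericyte-like nuclei, in both libraries.

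On the receptor side, Plxna2 and Plxna4 were highest in myofibroblast-like nuclei. Plxna2 is a receptor of class 6 semaphorins and a partner of neuropilins. Plxna2 CPM in the PBS library was 146 in AT1-like, 135 in AT2-like, 70.04 in fibroblast-like, 882 in myofibroblast or smooth muscle-like, 42.9 in pericyte-like, 8.52 in ILC2-like, 4.32 in macrophage-like, 11.8 in monocyte-like and 29.5 in mast cell or basophil-like nuclei. Plxna2 CPM in the OVA library was 344 in AT1-like, 337 in AT2-like, 132 in fibroblast-like, 1297 in myofibroblast or smooth muscle-like, 42.5 in pericyte-like, 12.8 in ILC2-like, 7.98 in macrophage-like, 5.00 in monocyte-like and 23.03 in mast cell or basophil-like nuclei. Its lead over AT1-like nuclei was 6.04-fold (PBS) and 3.77-fold (OVA). Of myofibroblast-like nuclei, 290 of 458 (PBS) and 351 of 381 (OVA) had at least 500 nuclear-gene UMIs and were thinned to 500. Of these, 43.4% (37.7% to 49.4%) and 47.3% (42.0% to 52.7%) held a Plxna2 UMI. Myofibroblast-like nuclei also held 2446 and 2800 CPM of the 8 fibroblast markers, against 3375 and 3791 CPM in fibroblast-like nuclei.

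Plxna4, a partner of Nrp1 in Sema3a signalling, showed the same 3 types in the lead. Plxna4 CPM in the PBS library was 109 in AT1-like, 89.5 in AT2-like, 3.64 in fibroblast-like, 237 in myofibroblast or smooth muscle-like, 18.4 in pericyte-like, 5.68 in ILC2-like, 6.47 in macrophage-like, 11.8 in monocyte-like and 0 in mast cell or basophil-like nuclei. Plxna4 CPM in the OVA library was 127 in AT1-like, 133 in AT2-like, 9.54 in fibroblast-like, 320.1 in myofibroblast or smooth muscle-like, 7.72 in pericyte-like, 1.43 in ILC2-like, 3.42 in macrophage-like, 5.00 in monocyte-like and 9.21 in mast cell or basophil-like nuclei. Fibroblast-like nuclei, the other large stromal type, were low in both libraries. Plxna1, the receptor of Sema6d, was highest in AT1-like nuclei at 38.4 and 52.7 CPM, with pericyte-like nuclei next at 30.6 and 46.3 CPM. Plxna3 had 56 UMIs, and its highest type differed between the libraries.

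Plxnb1, a class B plexin and a receptor of class 4 semaphorins, was near the level of 3 UMIs or below it in immune and fibroblast-like nuclei. Plxnb1 CPM in the PBS library was 90.96 in AT1-like, 25.2 in AT2-like, 2.73 in fibroblast-like, 15.8 in myofibroblast or smooth muscle-like, 36.7 in pericyte-like, 0 in ILC2-like, 1.62 in macrophage-like, 0 in monocyte-like and 0 in mast cell or basophil-like nuclei. Plxnb1 CPM in the OVA library was 65.02 in AT1-like, 33.6 in AT2-like, 0.763 in fibroblast-like, 15.6 in myofibroblast or smooth muscle-like, 23.2 in pericyte-like, 0 in ILC2-like, 1.14 in macrophage-like, 0 in monocyte-like and 0 in mast cell or basophil-like nuclei. AT1-like nuclei held the most in both libraries. Plxnb2 was highest in AT1-like nuclei of the PBS library at 88.4 CPM and in pericyte-like nuclei of the OVA library at 88.8 CPM, with AT1-like nuclei at 80.0 CPM there. Both were at 0 UMIs in ILC2-like nuclei of either library, with exact Poisson upper limits of 10.5 CPM in the PBS library and 5.26 CPM in the OVA library. Plxnb3 had 14 UMIs in all.

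Plxnc1, the receptor of Sema7a, was the one plexin of at least 30 UMIs led by an immune type. It was highest in macrophage-like nuclei at 115 CPM (214 UMIs) and 133 CPM (468 UMIs), followed by myofibroblast-like nuclei at 77.3 and 117 CPM. ILC2-like nuclei held 31.3 CPM (11 UMIs) and 52.8 CPM (37 UMIs). Plxnd1, the Sema3e receptor best known in endothelium, was highest in fibroblast-like nuclei among the named types at 120.1 and 117 CPM, with pericyte-like nuclei next at 73.5 and 108 CPM.

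Nrp1 and Nrp2, the co-receptors, differed in their epithelial preference. Nrp1 was highest in AT2-like nuclei at 251 CPM in the PBS library and 321 CPM in the OVA library. Fibroblast-like nuclei were next at 172 and 239.6 CPM, and AT1-like nuclei held 138 and 146 CPM. Nrp2 CPM in the PBS library was 172 in AT1-like, 59.2 in AT2-like, 90.05 in fibroblast-like, 21.1 in myofibroblast or smooth muscle-like, 6.12 in pericyte-like, 22.7 in ILC2-like, 49.6 in macrophage-like, 11.8 in monocyte-like and 29.5 in mast cell or basophil-like nuclei. Nrp2 CPM in the OVA library was 205 in AT1-like, 64.4 in AT2-like, 109 in fibroblast-like, 14.2 in myofibroblast or smooth muscle-like, 77.2 in pericyte-like, 9.98 in ILC2-like, 59.3 in macrophage-like, 9.998 in monocyte-like and 4.61 in mast cell or basophil-like nuclei. Nrp2 was thus highest in AT1-like nuclei and 1.91-fold and 1.88-fold above fibroblast-like nuclei. ILC2-like nuclei held 31.3 CPM of Nrp1 in the PBS library (11 UMIs) and 12.8 CPM in the OVA library (9 UMIs).

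Some of the highest receptor levels lay outside the named types. A small cluster of 58 nuclei (24 PBS, 34 OVA) was led by the haemoglobin gene Hbb-bs and had 8 of 8 endothelial markers raised, and it stayed unnamed because erythroid markers were raised with them. It held 335 CPM of Nrp1 in the PBS library and 581 CPM in the OVA library. Plxnd1 there was 306 and 225 CPM, above every named type. Sema6a there was 371 and 620.0 CPM, also above every named type. Sema6d stood at 299.97 and 413 CPM, Sema3a at 76.5 and 308 CPM, and Sema7a at 52.9 and 69.9 CPM. The cluster also held 8 UMIs of Sema3g, a class 3 semaphorin known from endothelium. The unnamed Ctnna3-led cluster of 434 nuclei held more Nrp1 than any named type, at 565 CPM in the PBS library and 630 CPM in the OVA library.

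Levels of different genes can be set side by side only per length, here CPM per kb of gene length in a nuclear library that also counts introns. By that measure the leading member of myofibroblast-like nuclei was Plxna2, at 4.44 CPM per kb in the PBS library and 6.53 CPM per kb in the OVA library. In pericyte-like nuclei it was Sema4c, at 9.46 and 13.5 CPM per kb. In fibroblast-like nuclei it was Plxnd1, at 2.99 and 2.91 CPM per kb. Among immune types Sema4b led in macrophage-like nuclei at 1.82 and 2.21 CPM per kb and Sema4a in ILC2-like nuclei at 1.91 and 2.49 CPM per kb. In AT1-like nuclei Plxnb1 led in the PBS library at 3.71 CPM per kb and Plxnb2 in the OVA library at 3.168 CPM per kb, whereas Sema3a, a gene of 477 kb, was not among the leading 3 there.

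To set ligands beside receptors, 25 known ligand-receptor pairs were listed. Both partners had at least 30 UMIs in 21 of them, and in 16 both partners kept a highest type across the libraries. In 14 of these 16 the ligand and the receptor were highest in different types (87.5%). Over all pairs of the 6244 genes that kept a highest type the share was 87.9%, so the listed pairs were at the level of any 2 genes. The exceptions were Sema3a with Plxna1 and Sema3b with Nrp2, all highest in AT1-like nuclei. Among the 14, Sema3a and Sema3e were highest in AT1-like nuclei while Plxna4 was highest in myofibroblast-like nuclei and Plxnd1 in fibroblast-like nuclei. Sema6a was highest in AT2-like nuclei while Plxna2 and Plxna4 were highest in myofibroblast-like nuclei. Sema4d, whose monocyte-like and ILC2-like levels were not resolved, and Plxnb1, highest in AT1-like nuclei, were also among them. Leads of Plxna1 and Plxnd1 over the next type were not resolved by counting error in either library. Those of Sema3b and Sema6a were not resolved in the PBS library. These are positions of messenger RNA, and no contact or signalling was measured.

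Other genes of the pathway were read from lists of receptors and partners outside the family. Of 14 further semaphorin receptors 10 had at least 30 UMIs, 6 kept their highest type in both libraries (60%, against 48.3% of all genes) and 1 (10%, against 11.6%) was at least 2-fold above the next type in both, the integrin subunit Itga1, in pericyte-like nuclei at 2364 and 2572 CPM. Met, the growth factor receptor that pairs with plexin B, was highest in AT2-like nuclei at 219 and 213 CPM. Of 29 signalling partners of plexins and neuropilins 26 had at least 30 UMIs, 16 kept their highest type (61.5%) and 4 were 2-fold above the next type in both libraries (15.4%). Mical3, an enzyme that oxidises actin, was among them, highest in fibroblast-like nuclei at 419 and 496 CPM. Of 5 VEGF genes, whose proteins bind neuropilins, 4 had at least 30 UMIs. Vegfa, the main angiogenic factor, was highest in AT1-like nuclei at 742 and 798 CPM, the type that also led Sema3a and Nrp2, and Vegfd in fibroblast-like nuclei at 166 and 195 CPM. Between the libraries, no VEGF gene passed the 2-fold limit where tested. Tested were 3 in fibroblast-like nuclei (3.52% of all genes higher, 0.718% lower). In AT1-like, AT2-like, ILC2-like, macrophage-like and myofibroblast-like nuclei 1 each was tested (3.58% to 10% of all genes higher, 0.51% to 1.22% lower). None was tested in the remaining types. Of the other 2 lists, the further receptors gave Itga1 lower in the OVA library in AT1-like nuclei (1 of 6 measured), and Met higher and Trem2 lower in macrophage-like nuclei (2 of 7). All-gene shares were 3.58% higher and 1.16% lower in AT1-like nuclei and 5.1% and 0.92% in macrophage-like nuclei. The signalling partners gave Farp2 and Limk1 higher in fibroblast-like nuclei (2 of 18, against 3.52% of all genes), Pak1 higher in ILC2-like nuclei (1 of 12, against 10% of all genes), and Fyn higher and Sh3bp1 lower in macrophage-like nuclei (2 of 18).

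The question of maternal OVA was asked within each type. Over 8 types with a measured member, 80 member and type combinations were tested. Of these, 8 were higher by 2-fold or more in the OVA library and 2 at least 2-fold lower, with an interval that left out equality. A split of 3 higher and 4 lower followed when each type was centred on its median gene of at least 100 UMIs, the 4 lower ones being Sema6d in AT1-like nuclei (-1.35), Sema3c in fibroblast-like nuclei (-1.69), and Plxna1 (-1.41) and Plxnd1 (-1.31) in macrophage-like nuclei. With UMIs of nuclear genes as the denominator it was 6 higher and 4 lower. All-gene shares were not taken under these 2 settings. Most genes lay above 0 in every type, with all-gene median log2 ratios of 0.16 to 0.42, and leaving mitochondrial UMIs out of the denominator moved these medians by -0.16 to -0.29. Values relative to the median gene of at least 100 UMIs therefore stand beside the ratios. None of these 10 calls held under all 8 alternative settings, and the number it held under is given for each. Nuclei were more deeply sequenced in the OVA library, and the part of depth in these ratios was not tested.

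**Figure D3:**
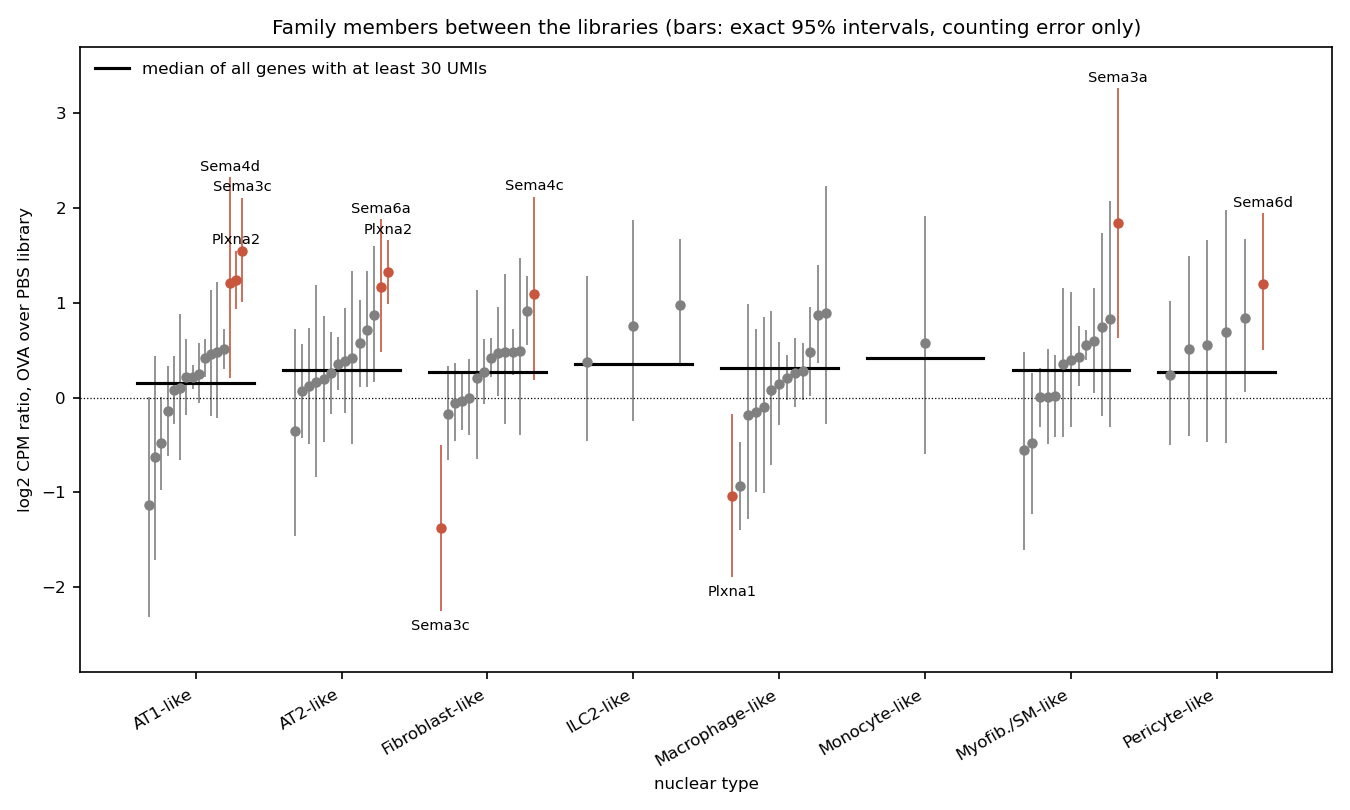
Points give the log2 CPM ratio of the OVA over the PBS library for each member with at least 30 UMIs in a type, bars exact 95% intervals (counting error only) and black lines the median of all genes with at least 30 UMIs. Red points are at least 2-fold apart with an interval that leaves out 0, and 8 lie above 0 and 2 below.

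In AT1-like nuclei 3 of 16 members were higher by 2-fold or more in the OVA library (18.8%, against 3.58% of all genes) and none of 16 was called 2-fold lower (1.16% of genes). Sema6d lay past 2-fold lower there, at 23.1 CPM (18 UMIs) and 10.5 CPM (12 UMIs), but was not called. Its log2 ratio of -1.13 had an interval (-2.32 to 0.0048) that included 0. Plxna2 was at 146 CPM (114 UMIs) in the PBS library and 344 CPM (392 UMIs) in the OVA library, a log2 ratio of 1.24 (0.93 to 1.55), or 1.01 relative to the median gene. The call held under 6 of 8 settings, and not with gated nuclei (0.93) or at most 20% mitochondrial UMIs (0.97). Sema3c was at 46.1 CPM (36 UMIs) in the PBS library and 134 CPM (153 UMIs) in the OVA library, a log2 ratio of 1.54 (1.01 to 2.11), or 1.32 relative to the median gene. Sema4d was at 14.1 CPM (11 UMIs) and 32.5 CPM (37 UMIs), a log2 ratio of 1.21 (0.20 to 2.33), or 0.98 relative to the median gene. The 2 AT1-like clusters held different shares of the libraries, 163 PBS and 284 OVA nuclei in the Lmo7-led cluster and 147 and 77 in the Ager-led cluster. Within the Lmo7-led cluster alone the log2 ratios were 1.13 for Plxna2, 1.41 for Sema3c and 1.01 for Sema4d. Myofibroblast markers, whose nuclei hold the most Plxna2 and Sema3c, had a summed level of 85.8 CPM in the PBS library (2 of 10 at 0, Cnn1 and Des) and 53.6 CPM in the OVA library (Cnn1 at 0) in AT1-like nuclei, and their part in the ratios was not tested. The Sema3c log2 ratio was 0.63 with thinned nuclei, 0.47 with nuclei gated by marker UMIs and 0.81 with a joint filter on RNA and accessibility counts, each under the 2-fold limit, and 2.11 with at most 20% mitochondrial UMIs. Its call held under 5 of 8 settings. The Sema4d log2 ratio was -1.54 with thinned nuclei and -0.21 with gated nuclei, the opposite direction, and its call held under 2 of 8.

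In AT2-like nuclei 2 of 14 members were at least 2-fold higher (14.3%, against 5.96% of all genes) and none was 2-fold lower (0.51% of genes). Plxna2 was again among them, at 135 CPM (107 UMIs) and 337 CPM (251 UMIs), a log2 ratio of 1.32 (0.99 to 1.66), or 0.97 relative to the median gene, and the call held under 6 of 8 settings (thinned 0.90). Myofibroblast markers summed to 68.0 CPM in the PBS library and 48.3 CPM in the OVA library in these nuclei, with 3 of 10 at 0 in each. Sema6a, a ligand of Plxna2, was at 34.0 CPM (27 UMIs) and 76.5 CPM (57 UMIs), a log2 ratio of 1.17 (0.48 to 1.89), or 0.81 relative to the median gene and 0.44 with thinned nuclei, and the call held under 2 of 8.

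In fibroblast-like nuclei 1 of 14 members was at least 2-fold higher (7.14%, against 3.52% of genes) and 1 at least 2-fold lower (0.718% of genes). Sema3c was the lower member, at 22.7 CPM (25 UMIs) and 8.78 CPM (23 UMIs), a log2 ratio of -1.37 (-2.26 to -0.50). It was -0.93 with thinned nuclei, -0.71 with gated nuclei and -0.55 with at most 20% mitochondrial UMIs, all short of 2-fold, and the call held under 5 of 8 settings. Sema4c was at 10.9 CPM (12 UMIs) and 23.3 CPM (61 UMIs), a log2 ratio of 1.09 (0.19 to 2.12), or 0.78 relative to the median gene. With the nuclear-gene denominator the interval of Sema4c was -0.05 to 1.88 and included 0, with thinned nuclei the ratio was -0.76, and the call held under 1 of 8 settings. Fibroblast-like nuclei lay in 2 Col25a1-led clusters, 1 with 757 PBS and 416 OVA nuclei and 1 with 152 and 756. The Sema3c ratio was -1.19 in the former (17 and 5 UMIs, interval -2.98 to 0.31) and -1.45 in the latter (8 and 18 UMIs).

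The remaining types gave 1 call each or none. In macrophage-like nuclei 0 of 13 members were 2-fold higher (5.1% of genes) and 1 was 2-fold lower (0.92% of genes). This was Plxna1, at 14.02 CPM (26 UMIs) and 6.84 CPM (24 UMIs), a log2 ratio of -1.04 (-1.90 to -0.18), a call that held under 4 of 8 settings and was -0.29 as the mean CPM of single nuclei. The ratio differed among macrophage-like clusters, at -2.55 in the Nrg4-led cluster of 234 PBS and 880 OVA nuclei (9 and 7 UMIs), 0.08 in the other Nrg4-led cluster, of 723 and 346 nuclei (6 and 4 UMIs), and -0.39 in the Ccl6-led cluster (11 and 12 UMIs). Plxnd1 lay just inside the 2-fold limit there, at a log2 ratio of -0.94 (-1.40 to -0.47) from 81 and 80 UMIs. In myofibroblast-like nuclei 1 of 13 was 2-fold higher (7.69%, against 4.75% of genes) and none lower (1.22% of genes), Sema3a at 12.3 CPM (7 UMIs) and 44.1 CPM (31 UMIs), a log2 ratio of 1.84 (0.63 to 3.27), or 1.51 relative to the median gene. The call held under 4 of 8 settings, and the interval included 0 with thinned nuclei, gated nuclei, the joint filter (1.30, -0.33 to 3.34) and at most 20% mitochondrial UMIs. AT1 markers, whose nuclei hold the most Sema3a, summed to 130.1 and 145 CPM in these nuclei, with none of 7 at 0, and their part in the ratio was not tested. In pericyte-like nuclei 1 of 6 was 2-fold higher (16.7%, against 7.34% of genes) and none lower (1.99% of genes), Sema6d at 135 CPM (22 UMIs) and 309 CPM (80 UMIs), a log2 ratio of 1.20 (0.50 to 1.95), or 0.90 relative to the median gene, and the call held under 3 of 8 settings.

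In ILC2-like nuclei, the cells the study was about, 3 members had 30 UMIs and none was past the 2-fold limit in either direction (10% of genes higher, 0.613% lower). Sema4d came closest, at 71.0 CPM (25 UMIs) and 139.7 CPM (98 UMIs), a log2 ratio of 0.98 (0.33 to 1.67), or 0.49 relative to the median gene. Sema4a was at a log2 ratio of 0.38 (-0.46 to 1.28) and Plxnc1 at 0.76 (-0.25 to 1.88), and both intervals included 0. In monocyte-like nuclei 1 member was measured and none was past the limit (13.9% of genes higher, 0.967% lower). In mast cell or basophil-like nuclei no member reached 30 UMIs (14.2% of genes higher, 1.46% lower). Over the members of a type, the median log2 ratio was 0.24 in AT1-like nuclei (0.16 for all genes), 0.37 in AT2-like nuclei (0.30), 0.35 in fibroblast-like nuclei (0.27), 0.14 in macrophage-like nuclei (0.31) and 0.39 in myofibroblast-like nuclei (0.29).

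Chromatin accessibility at the starts followed the RNA pattern only loosely. Transposition counts in peaks within 2 kb of an annotated start, per 1000000 peak counts of the type (accessibility CPM), were highest in the type with the highest RNA for 8 of 27 members in the PBS library (29.6%, against 23.2% of all genes) and 9 of 27 in the OVA library (33.3%, against 25% of genes). The members' shares are near those of all genes. Plxna4, Sema3d, Sema3e, Sema4d, Sema4f and Sema6c were in both counts. Of the 4 members whose promoters are printed above, Sema3d and Sema3e had RNA and accessibility led by 1 type in both libraries, while Sema4c did so in the OVA library only and Plxna2 in neither. Sema3e accessibility was 16.1 accessibility CPM in AT1-like nuclei of the PBS library and 19.7 accessibility CPM in the OVA library, with the next types at 12.2 and 11.8. Sema3a, in contrast, had its most accessible start in fibroblast-like nuclei of the PBS library at 12.4 accessibility CPM and in AT2-like nuclei of the OVA library at 13.98. Plxna2 was most accessible in pericyte-like and AT2-like nuclei, at 57.5 and 59.2 accessibility CPM.

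Single peaks were then compared between types. In the genes and up to 10 kb upstream, 125 pairs of overlapping peaks of the 2 libraries had at least 30 counts in their leading type, and 23 of these (18.4%, against 16.5% of all 44570 such pairs) were led by the same type at least 2-fold in both libraries. The share is near that of all peaks. They lay in 12 genes, 19 in introns, 2 over an exon and intron and 2 upstream, and 11 of them were led by fibroblast-like nuclei. No share by leading type was taken over all pairs, so these 11 have no background beside them. Peak counts of a named type in the PBS library ranged from 622886 (monocyte-like) to 10286865 (macrophage-like), with 5747267 in fibroblast-like nuclei. Their part in the tally was not tested. Sema4d had the 2 upstream peaks, both led by ILC2-like nuclei, at chr13:51798017-51798902 and chr13:51800765-51801650 (mm10, PBS library). The former held 25.3 accessibility CPM in ILC2-like nuclei of the PBS library and 23.5 accessibility CPM in the OVA library, 3.46-fold and 2.87-fold above mast cell or basophil-like nuclei. The latter held 23.5 and 20.6, 4.802-fold and 2.53-fold above the same type. Sema3d, highest in fibroblast-like nuclei by RNA, had 2 fibroblast-led peaks, the one with the larger fold in an intron at chr5:12514973-12515834 with 14.1 and 18.0 accessibility CPM, 6.28-fold and 6.29-fold above myofibroblast-like nuclei. Sema4b had a macrophage-led peak in an intron at chr7:80202874-80203541, with 28.8 and 27.1 accessibility CPM, and Nrp1 an AT2-led peak in an intron at chr8:128446571-128447090, with 24.5 and 24.6. For Sema3d, Sema4b and Nrp1 the leading type of the peak was also the leading type of the RNA among the named types. The same held for a fibroblast-led peak of Plxnd1 and a macrophage-led peak of Plxnc1, but not for a fibroblast-led peak of Plxnc1. In all other genes with such a peak the leading types of peak and RNA differed, in the OVA library or in both. Nrp2, highest in AT1-like nuclei by RNA, had macrophage-led and fibroblast-led peaks. Plxna4 and Sema3c, highest in myofibroblast-like nuclei by RNA, each had a fibroblast-led peak. The Sema4d peaks were led by ILC2-like nuclei, while its RNA was not resolved between monocyte-like and ILC2-like nuclei. Plxna2, highest in myofibroblast-like nuclei by RNA, had a macrophage-led intronic peak at chr1:194677512-194678388 with 10.2 and 12.5 accessibility CPM, where macrophage-like nuclei held 4.32 and 7.98 CPM of its RNA. Sema5a, highest in AT1-like nuclei by RNA, had 4 fibroblast-led intronic peaks. Sema6d had 4 intronic peaks led by myofibroblast-like nuclei, which led its RNA in the PBS library but not in the OVA library.

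**Figure D4:**
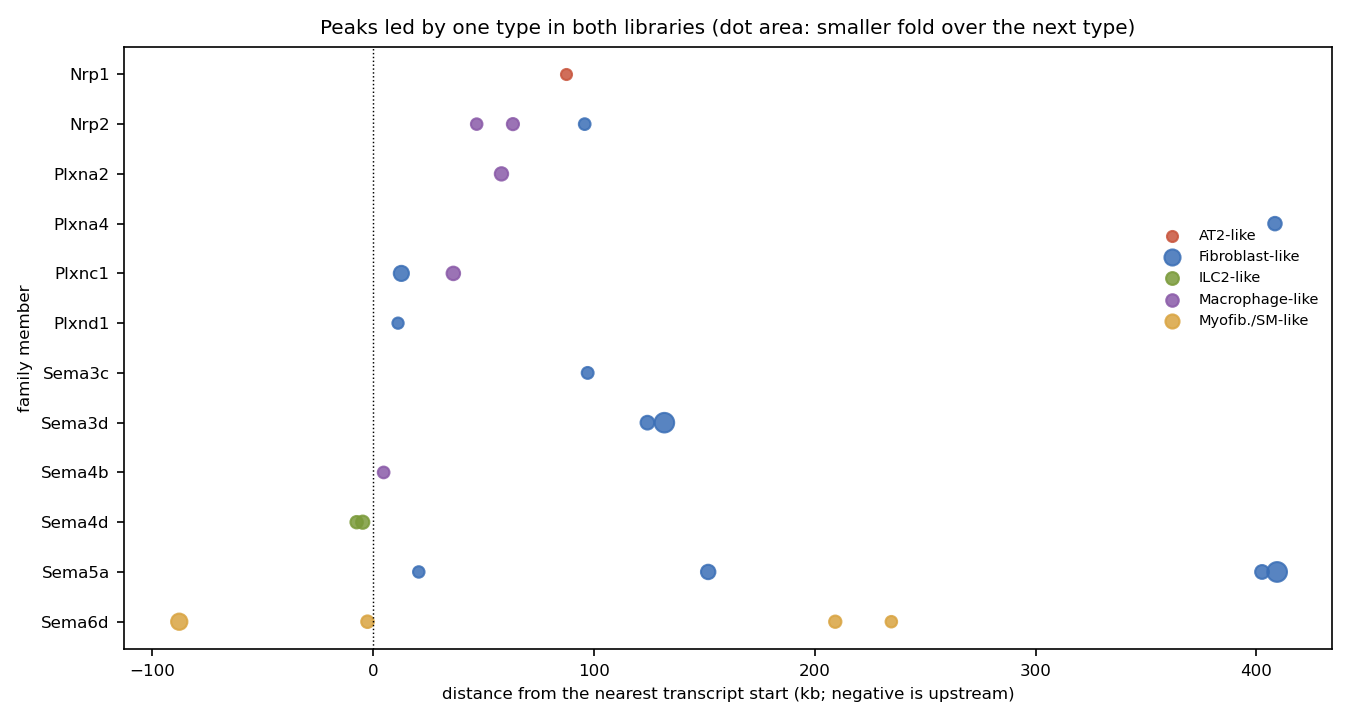
Dots mark the 23 peaks led by the same type at least 2-fold in both libraries, by distance from the nearest annotated transcript start in kb and by gene, with colour for the leading type and area for the smaller of the 2 folds. Fibroblast-like nuclei lead 11, macrophage-like nuclei 5 and the 2 peaks upstream of Sema4d are led by ILC2-like nuclei.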

How the data were processed

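Single-nucleus multiome libraries were processed by the authors with Cell Ranger ARC 2.0.1 on mm10, as the submitters' processing notes list, and the deposited matrices hold raw counts of UMIs per gene and of transposition events per peak. Peaks were listed separately for each library. Following part of the study's methods, barcodes under 200 genes or above 60% mitochondrial UMIs were removed. The study's further limits on RNA and accessibility counts, nucleosome signal and signal at transcript starts were not applied. The count limits were used as an alternative setting (the joint filter), where 20 of 27 members shared their highest type (74.1%). Doublets were taken as the barcodes with the highest share of simulated doublets among their neighbours, at a rate of 0.8% per 1000 barcodes. Nuclei were clustered jointly with the family genes left out (3000 variable genes, 30 principal components, 15 neighbours, Leiden resolution 1). A cluster was named where at least 3 markers of a type were found in at least 5% of its nuclei and raised at least 1.5-fold, with a mean lead of 1 on the log2 scale over any other type and no other type's markers leading its top 10 genes. That rule was set after the clusters, but not the family's values by type, had been seen, so names are rebuilt and may differ from the study's.

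UMIs were summed by type and library and divided by the sum of all UMIs (CPM). With 1 library per group no test was made. CPM carry exact Poisson intervals, shares exact Clopper-Pearson intervals and ratios exact conditional binomial intervals, all at 95% and for counting error only. A member was ranked with 30 UMIs over the named types and compared between libraries with 30 UMIs in a type. It was called where the CPM ratio was at least 2-fold and its interval left out equality. Calls were repeated under 8 alternative settings, with the interval of the summed counts kept for the mean CPM of single nuclei. The number of settings a call held under was taken without the minimum of 30 UMIs. All members were named with their highest type, and values in every type were given for the 12 members of at least 100 UMIs with the largest lead over the next type. Peaks within 2 kb of an annotated start were summed per gene, with at least 50 counts. The ratio and ranking steps were tested on simulated data. Members, lists and pairs were chosen with earlier results of these data known. Python 3.11.15, numpy 2.4.6, scipy 1.17.1, pandas 2.3.3, scanpy 1.11.5, leidenalg 0.10.2 and matplotlib 3.10.9 were used. Promoters came from RefSeq on GRCm38.p6, where 26 of 31 members had an entry.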

Additional observations from a re-analysis of the deposited data

Results flagged for a closer look

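Sema3c, a secreted ligand of neuropilins and Plxnd1, lay on opposite sides of equality in 2 types. In AT1-like nuclei its log2 ratio of the OVA over the PBS library was 1.54, and in fibroblast-like nuclei it was -1.37. With 1 library for each group the difference between the types was not tested.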

How the results depend on the processing

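No paired analysis was possible because there was only 1 library on each side. Members called higher by 2-fold or more in the OVA library numbered 8 as reported, 4 with at least 100 UMIs, 15 with a 1.5-fold limit, 3 when centred on the median gene or with at most 20% mitochondrial UMIs, and 1 with nuclei thinned to 500 UMIs. Members called at least 2-fold lower numbered 2 as reported, 4 when centred or with UMIs of nuclear genes only, 1 with the mean CPM of single nuclei or thinned nuclei, and 0 with at least 100 UMIs, at most 20% mitochondrial UMIs or nuclei gated by marker UMIs. No all-gene shares were taken for these counts under the alternative settings. Members 2-fold above the next type were 11 of 27 as reported and 6 of 20 ranked with thinned nuclei. They were 6 of 28 with doublet calls kept and 7 of 21 with at most 20% mitochondrial UMIs. That limit left few PBS nuclei in several types, and 12 of 21 members shared their highest type under it, against 23 of 27. No all-gene shares were taken for these rankings either. The median log2 ratio of members in AT2-like nuclei was 0.0189 when centred and 1.04 with at most 20% mitochondrial UMIs. The median changed sign in macrophage-like nuclei when centred (-0.23) or with nuclear genes only (-0.0746), in fibroblast-like nuclei when thinned (-0.14), and in myofibroblast or smooth muscle-like nuclei with at most 20% mitochondrial UMIs (-0.0501). Accessibility and RNA shared their highest type for 5 members of the PBS library with gated nuclei, against 8. Among single members, the log2 ratio of Sema4d in AT1-like nuclei was -1.54 thinned and -0.21 gated, that of Sema4c in fibroblast-like nuclei -0.76 thinned, and that of Plxna1 in macrophage-like nuclei 0.0847 in 1 of its clusters, a split chosen after seeing the data. The causes were not tested. The median in macrophage-like nuclei had no value with at most 20% mitochondrial UMIs.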

Other observations

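Small types with under 50 nuclei in a library also held members of the family, given here with both libraries joined. Ciliated-like nuclei (52) held Sema3e at 634 CPM from 303 UMIs, above the level of AT1-like nuclei in either library. Club-like nuclei (51) held Sema3c at 239.7 CPM from 38 UMIs and Plxnb1 at 88.3 CPM from 14 UMIs. Mesothelium-like nuclei (24) held Plxna4 at 332 CPM from 22 UMIs, Sema6a at 226 CPM from 15 UMIs and Sema3d at 211 CPM from 14 UMIs. Neutrophil-like nuclei (84) held Sema4d at 201 CPM from 16 UMIs, 15 of them in the OVA library.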
